A study of Mus with 51 samples.

Results

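T cells of 5C.C7 mice were sorted by surface CD69 at 6 h after exposure to MCC peptide, and the comparison described here is between the CD69-high fraction (CD69-hi) and the CD69-low fraction (CD69-lo). Libraries were assigned by the labelled sorting phenotype and time, which gave 11 of the 51 libraries of the series. They are 3 MCC CD69-hi, 3 MCC+GP CD69-hi, 2 MCC CD69-lo and 3 MCC+GP CD69-lo libraries, so the peptide mix (MCC alone, or MCC together with GP) formed a stratum. The strain of every library is 5C.C7 TCR transgenic on a B10.A background that carries a Rag2 mutation, with the transgenes Tcra5CC7 and Tcrb5CC7, so all T cells share 1 engineered receptor. MCC is a moth cytochrome c peptide that this receptor recognizes as an agonist, and GP is the peptide that the study adds to it as the self-peptide. At 6 h there were also 2 libraries without peptide (NP) and 2 with GP alone, which had no CD69 gate and serve here only as levels. The tissue was lymph node. The age of the animals, the peptide doses, the cells that presented the peptides, the position of the gates and whether replicates came from separate animals are not given in the sources used here, so p-values here reflect only how far these libraries scatter, which may be technical.

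CD69 is a surface receptor that lymphocytes display within hours of T cell receptor (TCR) triggering, and it holds cells in the lymph node by removing the egress receptor encoded by S1pr1 from the surface. Triggering first switches on immediate-early transcription factors through the ERK and calcium pathways. Myc, IL-2 and its receptor follow within hours, as does the machinery with which a small resting cell grows before it divides. Genes of the resting state, such as Klf2 and Il7r, are shut off in the same hours.

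Total counts of the 11 libraries ran from 3169914 to 8029952, and the NP and GP libraries of 6 h lay within that range. Levels are given in CPM, a gene's reads per 1e+06 of a library total that was scaled by TMM. Sums of markers are in plain CPM, from unscaled totals. Both are relative to the other RNA of the library. So a difference in RNA content per cell is not seen, and fewer cells of a type cannot be told apart from less RNA per cell. On the first principal component (75.9% of the variance) the 6 CD69-hi libraries lay between 87.14 and 96.3, the 5 CD69-lo libraries between -59.47 and -24.86, and the NP and GP libraries between -83.64 and -77.78. MCC+GP CD69-lo replicate 2, the library with the fewest counts, and replicate 3, at -35.13, lay nearest to the CD69-hi libraries, so the results that rest on them are also given without both. T-cell defining genes were high throughout: Trac, which encodes the constant part of the receptor alpha chain, ranged over 1621 to 2511 CPM in CD69-lo and 4068 to 5748 in CD69-hi, and Cd3e over 165 to 228 and 129 to 179. Genes of antigen-presenting cells were present in both fractions. The summed level of 35 myeloid and dendritic genes, tested or not, was 692 to 1478 plain CPM in CD69-hi, 1767 to 2904 in CD69-lo and 638 to 825 in NP. B-cell genes summed to 691 to 1689 in CD69-hi, 943 to 2565 in CD69-lo and 456 to 743 in NP. With MCC alone these B-cell sums overlapped, at 691 to 1578 and 943 to 1453. MHC class II presentation genes summed to 459 to 1343 in CD69-hi, 1086 to 2249 in CD69-lo and 280 to 571 in NP. Of single markers, Itgam, Cd8a, Cdh5 and Xcr1 were under 1 CPM in every one of the 11 libraries. Others were detected: in CD69-lo, Cd8b1 of CD8 T cells was at 5.91 to 19 CPM, Klrd1 of NK cells at 3.86 to 11.8, Zbtb46 of dendritic cells at 29.2 to 51.6 and Tyrobp of myeloid cells at 9.77 to 26.7. In CD69-hi these 4 ranged over 1.19 to 6.32, 2.42 to 4.56, 14.5 to 39.9 and 2.6 to 10.7 CPM.

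**Figure D1:**
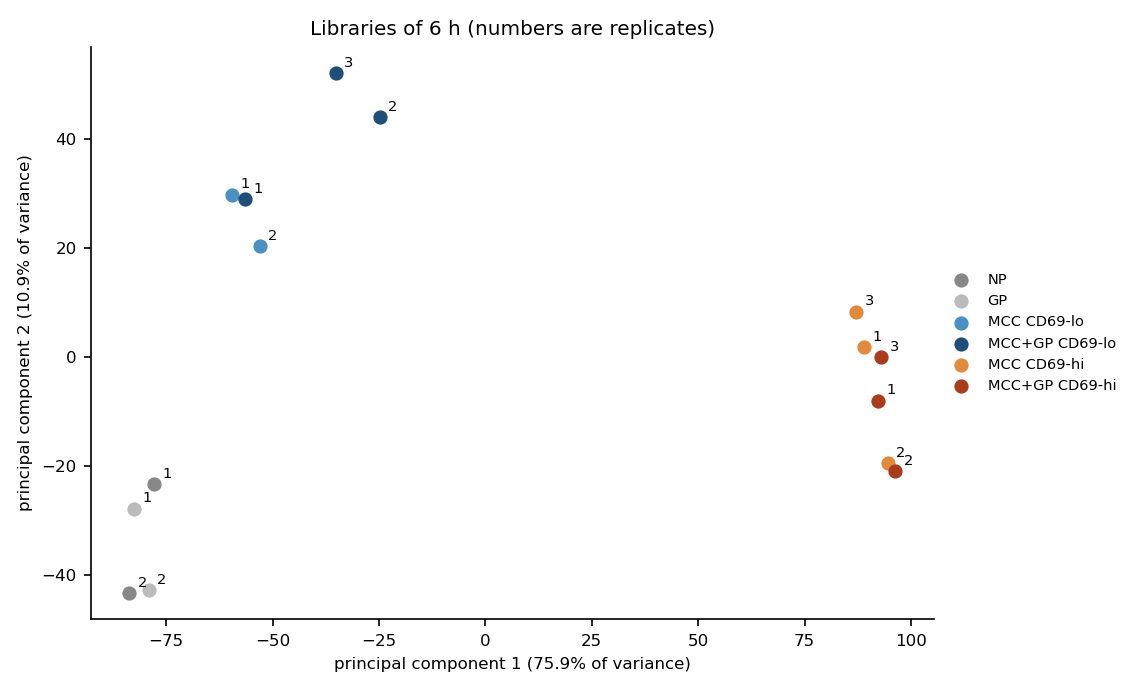
Principal components of the 15 libraries of 6 h, computed from log2(CPM + 1) of 13481 genes. The horizontal axis is the first component and the vertical axis the second, each with its share of the variance, dots are libraries coloured by group, and numbers are replicates. CD69-hi libraries lie at the far right, CD69-lo libraries at the left and above the NP and GP libraries.

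The fractions differed in most of the transcriptome. With the peptide mix as a stratum, 4537 of 13653 tested genes (33.2%) were higher in CD69-hi and 5105 (37.4%) were lower, at an adjusted p of at most 0.05 (edgeR quasi-likelihood test, Benjamini-Hochberg). Genes described below as higher or lower in CD69-hi passed that threshold. Log2 fold changes are CD69-hi over CD69-lo ± SE, and CPM with ± are means with their SD (n = 6 for CD69-hi and n = 5 for CD69-lo). By over 2-fold, 2441 genes (17.9%) were higher and 3499 (25.6%) lower. By over 16-fold, 60 were higher and 233 lower, so the largest differences were mostly those of genes lower in CD69-hi. The levels of all CD69-hi libraries lay above those of all CD69-lo libraries for 3675 genes and below them for 3581. With so many genes called, a list is described by its counts and median against the median of all tested genes, -0.11, and a share near 33.2% or 37.4% is no result about that list. Single genes named below are the largest called differences, a fixed panel and the leading members of each list. Further list members were picked for their known roles after their values were seen, and the counts over the whole lists do not depend on that choice.

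**Figure D2:**
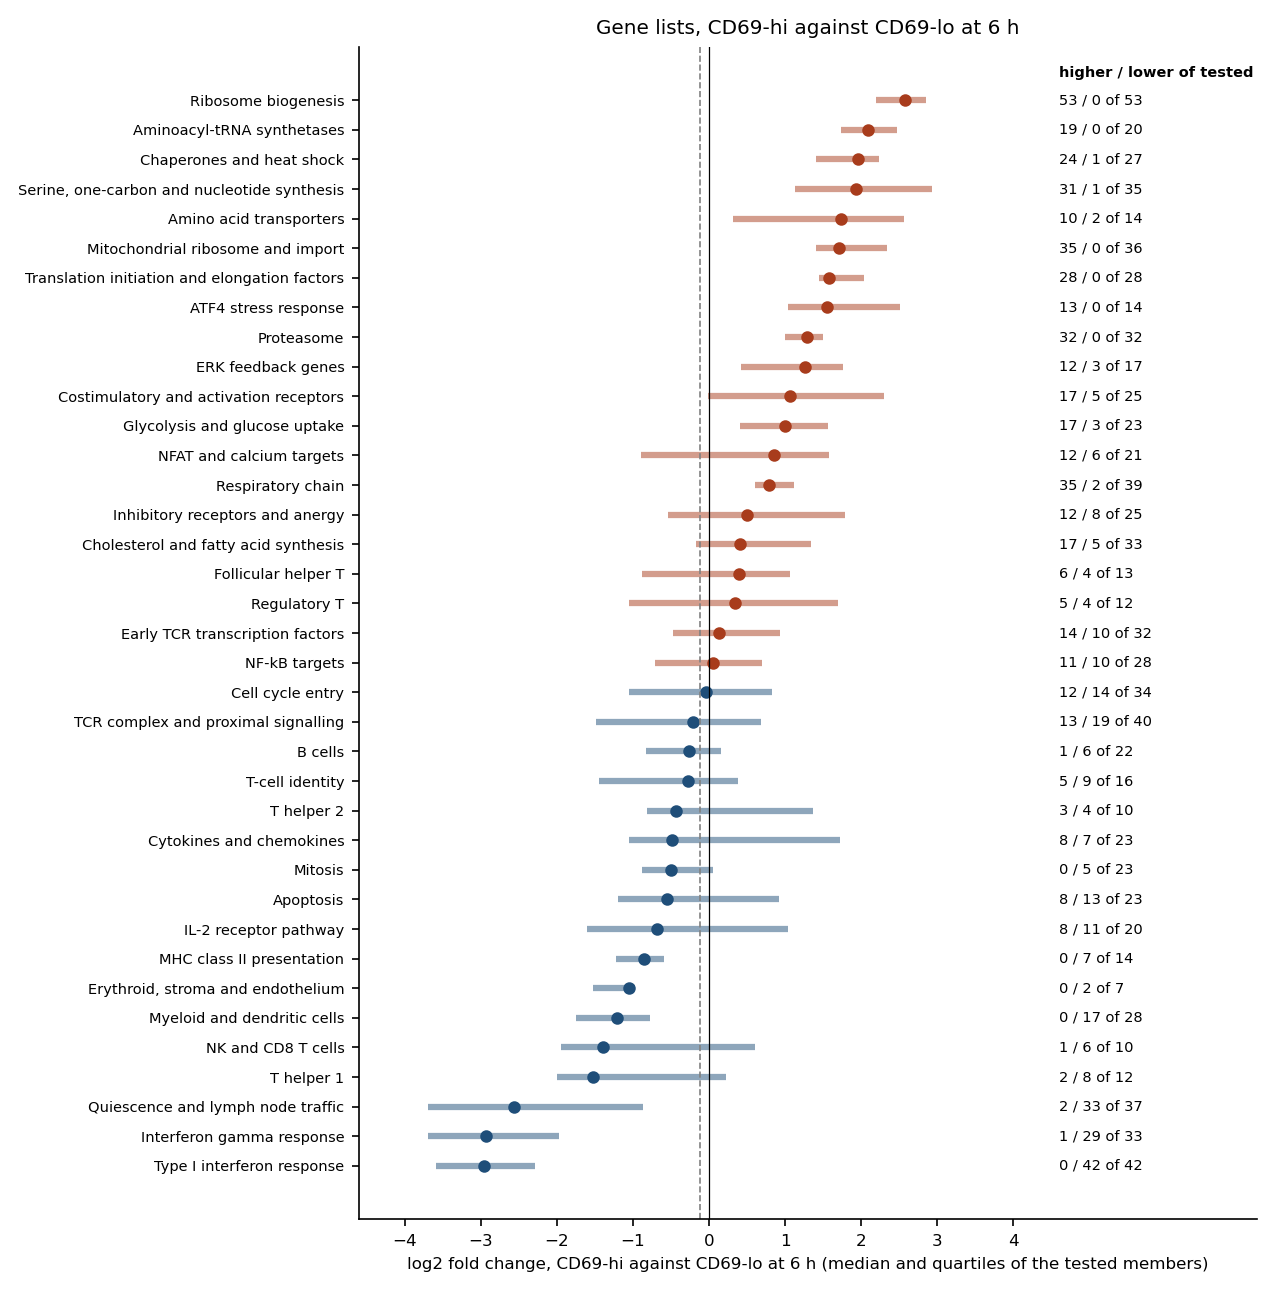
Median (dot) and quartiles (bar) of the log2 fold change between CD69-hi and CD69-lo at 6 h for the tested members of 37 gene lists, on the horizontal axis. The dashed line is the median of all tested genes (-0.11), and the numbers at the right give how many members were higher and lower of those tested. Ribosome biogenesis lies at the top (median 2.57) and the type I interferon response at the bottom (median -2.96).

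Cd69 RNA followed the gate less sharply than many other genes. It stood at 725, 1151 and 1095 CPM in MCC CD69-hi and 846, 909 and 1106 CPM in MCC+GP CD69-hi. In CD69-lo it stood at 348 and 476 CPM in MCC CD69-lo and 581, 809 and 678 CPM in MCC+GP CD69-lo, and NP held 125 and 32.3 CPM. The fractions overlapped, and the difference was 0.87 ± 0.14 (adjusted p = 4.51e-05). Nr4a1, which encodes the nuclear receptor Nur77 used as a reporter of TCR signalling, overlapped too, with 3072 to 4538 CPM in CD69-hi and 1178 to 3911 in CD69-lo against 102 in NP. Its difference of 0.69 ± 0.17 was called here (adjusted p = 0.00243), but not when all 51 libraries entered the model (0.0710). Both genes were thus far above NP in the CD69-lo fraction as well.

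Il2, the T cell growth factor, gave the largest difference among the cytokines. CD69-hi libraries held 112, 135 and 169 CPM in MCC CD69-hi and 146, 123 and 216 CPM in MCC+GP CD69-hi. The CD69-lo libraries held 0 and 1.82 CPM in MCC CD69-lo and 1.25, 6.83 and 4.79 CPM in MCC+GP CD69-lo, and no Il2 count was seen in NP. Every CD69-hi library was far above every CD69-lo library, and the difference was 6.24 ± 0.45 (adjusted p = 1.37e-06). The gene lies on chromosome 3 at 37120713 to 37125954 (GRCm38.p6). Adad1, which ends 9201 bp away and is otherwise known from germ cells, was looked at after its values were seen, as the nearest protein-coding neighbour. It was also higher (5.34 ± 0.50), at a mean of 8.29 CPM against 0.162. The sources used here do not say whether counting used strand.

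Other T cell cytokines and chemokines went both ways, at shares near those of all tested genes (33.2% higher and 37.4% lower). Of 23 tested members of that list, 8 were higher and 7 lower, with a median of -0.48 that became 0.83 without the 2 MCC+GP CD69-lo libraries nearest to CD69-hi. Ccl4, an inflammatory chemokine, was at 142 ± 28.5 CPM in CD69-hi and 7.57 ± 4.93 in CD69-lo (4.51 ± 0.29). Xcl1, which attracts cross-presenting dendritic cells, was at 88.1 ± 8.24 against 6.66 ± 7.86, and its difference of 3.70 ± 0.73 became 8.0 without those libraries. Ccl3 (3.67 ± 0.39) and the lymphotoxin gene Lta (2.51 ± 0.27) were higher as well. Tnf, an early cytokine of activated T cells, was high in both fractions, at 474 ± 151 and 284 ± 123 CPM (0.94 ± 0.29). On the other side stood Cxcl10, an interferon-induced chemokine (-2.91 ± 0.26, 6.29 ± 3.11 against 49.1 ± 14.0 CPM), Ccl5 (-1.52 ± 0.32) and Ltb (-0.90 ± 0.17). Il4, Il13, Csf2 and Il22 had means under 15 CPM in both fractions.

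Genes of the IL-2 receptor and its signalling differed in both directions. Il2ra, which encodes the high-affinity alpha chain, was at 1163, 1744 and 1424 CPM in MCC CD69-hi and 1313, 1472 and 1487 CPM in MCC+GP CD69-hi. CD69-lo levels were 68.2 and 131 CPM in MCC CD69-lo and 79.4, 292 and 206 CPM in MCC+GP CD69-lo, and NP held 8.43 and 9.75 CPM. All CD69-hi libraries were higher than all CD69-lo libraries, with a difference of 3.37 ± 0.36. The beta chain gene Il2rb (1.41 ± 0.44), the feedback inhibitor gene Cish (1.51 ± 0.22) and Bcl2 (0.92 ± 0.13) were also higher. Of the 20 tested members of this list, 8 were higher and 11 lower, and 5 were higher without MCC CD69-lo replicate 1. Among the lower ones were Socs3, an inhibitor of JAK signalling, at 11.5 ± 6.84 CPM against 236 ± 35.6 (-4.38 ± 0.39), the kinase gene Jak1 (-1.56 ± 0.10), the transcription factor gene Stat5b (-2.0 ± 0.09) and the kinase gene Pim2 (-1.94 ± 0.14).

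**Figure D3:**
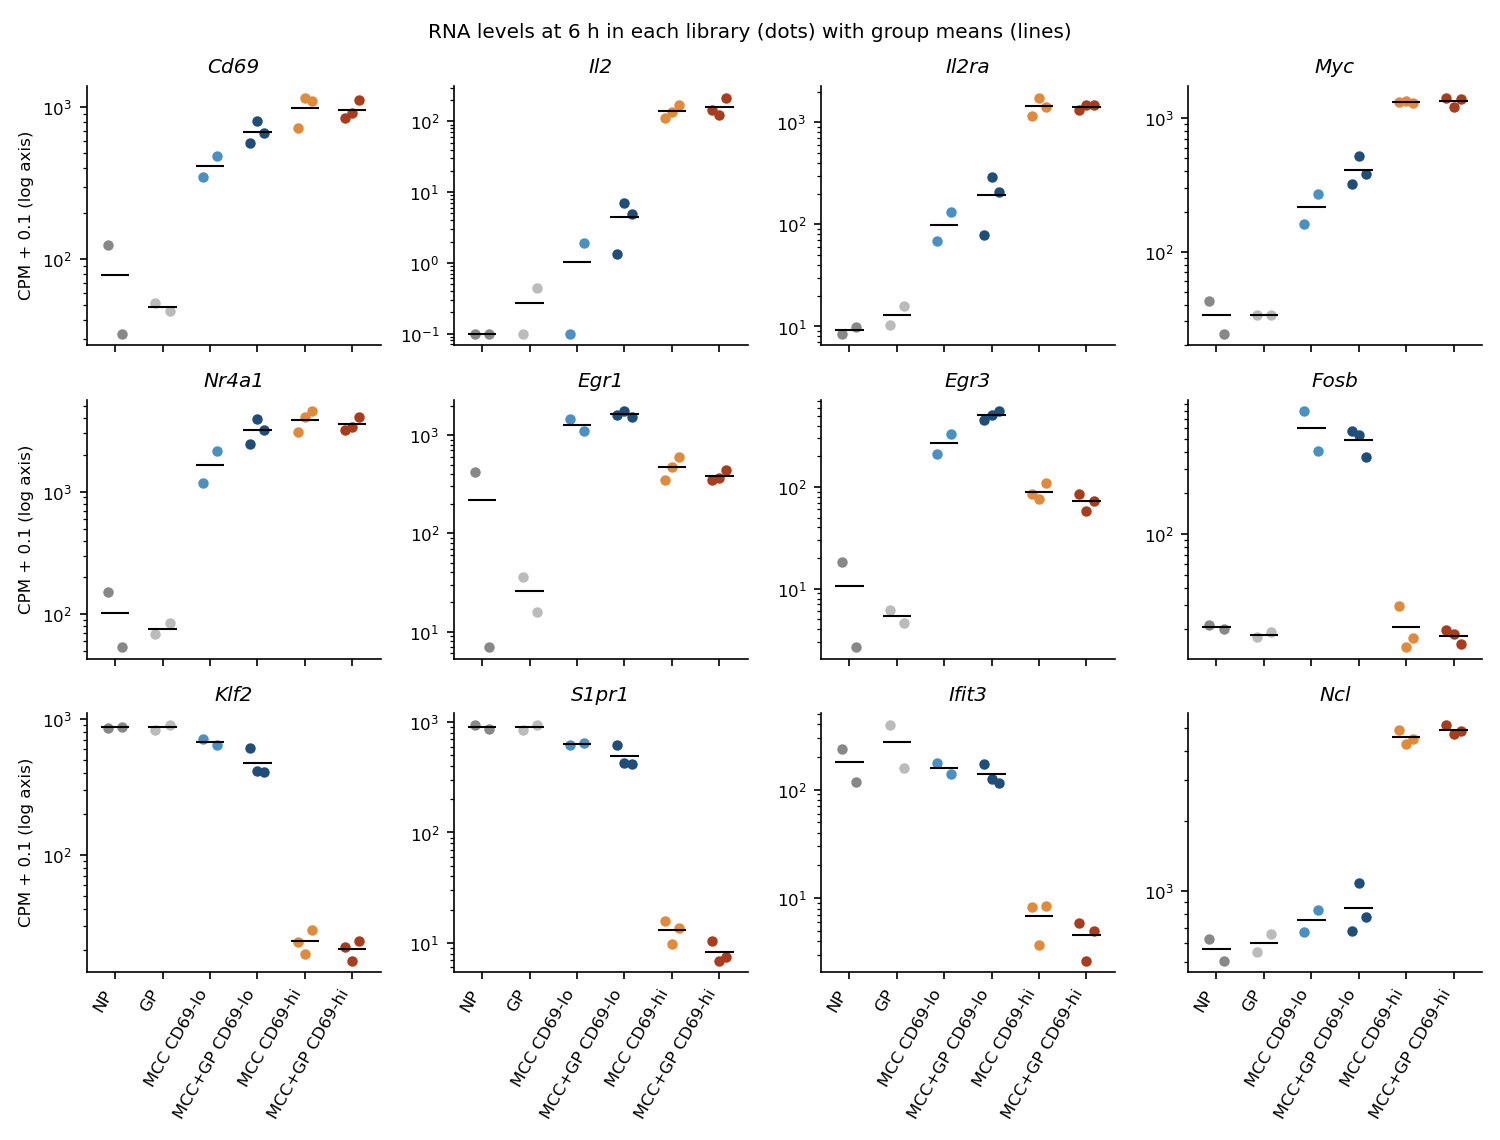
Levels of 12 genes at 6 h on a log axis of CPM + 0.1, with 1 dot per library and a line at each group mean, for NP, GP, MCC CD69-lo, MCC+GP CD69-lo, MCC CD69-hi and MCC+GP CD69-hi. Il2, Il2ra, Myc and Ncl are highest in CD69-hi, Egr1, Egr3 and Fosb in CD69-lo, and Klf2, S1pr1 and Ifit3 are lowest in CD69-hi.

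The early transcription factors went in opposite directions. Of 32 tested, 14 were higher and 10 lower in CD69-hi, with a median of 0.13. On the higher side were regulators of growth and differentiation. Myc, which drives cell growth, measured 1314, 1337 and 1306 CPM in MCC CD69-hi and 1422, 1218 and 1381 CPM in MCC+GP CD69-hi. The levels in CD69-lo were 160.0 and 272 CPM in MCC CD69-lo and 324, 523 and 384 CPM in MCC+GP CD69-lo, without overlap (2.16 ± 0.15, adjusted p = 2.03e-09). Irf4, whose level follows the strength of the TCR signal, had 1897 to 2283 CPM in CD69-hi and 289 to 562 in CD69-lo (2.34 ± 0.12). Nfkb1, which encodes an NF-kB subunit (1.98 ± 0.16), Fosl1, a late AP-1 member (2.47 ± 0.14), Nr4a2 (1.57 ± 0.25), Nfatc1 (1.41 ± 0.14) and Rel (1.18 ± 0.11) were higher too. Nr4a3, at 2423 ± 213 against 1477 ± 581 CPM, differed by 0.84 ± 0.17.

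The AP-1 genes Fosb, Fos, Jun, Jund and Junb were lower in CD69-hi. Fosb, an AP-1 member transcribed within minutes of stimulation, reached 29.5, 14.7 and 17.2 CPM in MCC CD69-hi and 19.6, 18.2 and 15.6 CPM in MCC+GP CD69-hi. Among CD69-lo libraries it measured 797 and 406 CPM in MCC CD69-lo and 568, 536 and 366 CPM in MCC+GP CD69-lo, while NP held 21.2 and 19.8 CPM. CD69-hi libraries were thus near the NP level and every CD69-lo library was at least 366 CPM (-4.84 ± 0.25, adjusted p = 2.29e-08). Fos, the founding member of AP-1, had 26.1 to 40.1 CPM in CD69-hi, 228 to 531 in CD69-lo and 64.2 and 10.8 in NP (-3.33 ± 0.19). Jun, its partner, had 25.8 to 52.4 against 149 to 349.5 (-2.35 ± 0.26), and Jund (-0.98 ± 0.13) and Junb (-0.77 ± 0.17) were lower as well.

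The Egr genes, zinc finger factors downstream of ERK, differed in direction. Egr1 stood at 347, 469 and 595 CPM in MCC CD69-hi and 353, 364 and 446 CPM in MCC+GP CD69-hi. The other fraction held 1444 and 1114 CPM in MCC CD69-lo and 1587, 1746 and 1535 CPM in MCC+GP CD69-lo, without overlap (-1.75 ± 0.13, adjusted p = 3.6e-09). Egr3, which restrains T cell activation, had 57.7 to 109.6 CPM in CD69-hi and 212 to 553 in CD69-lo (-2.20 ± 0.14). Egr2, its close relative, was slightly higher in CD69-hi, at 356 ± 20.5 against 271 ± 69.1 CPM (0.50 ± 0.09), a call lost when all 51 libraries entered the model (adjusted p = 0.162). Some dendritic cell genes were also lower in CD69-hi: Flt3, the receptor gene of dendritic cell precursors, had 5.62 to 13.8 CPM in CD69-hi and 22.4 to 44.4 in CD69-lo (-1.73 ± 0.23), and Fscn1, an actin bundler of mature dendritic cells, 95.7 to 315 and 359 to 701 (-1.36 ± 0.32). Zbtb46 did not pass (-0.52 ± 0.24, adjusted p = 0.0670). Of 28 tested myeloid and dendritic genes 17 were lower, 0 higher and 11 not called. With a replicate block by well order more of them were lower, as given below. The part of antigen-presenting cells in the levels of Egr1, Egr3, Fos and Fosb was not tested. Without the 2 CD69-lo libraries nearest to CD69-hi, Fosb differed by -4.95, Egr1 by -1.74, Egr3 by -2.13 and Fscn1 by -1.07.

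Feedback genes of the ERK pathway were mostly higher in CD69-hi, with 12 of 17 tested higher, 3 lower and a median of 1.26. Spry1, which encodes a brake on receptor signalling to Ras, was at 517, 676 and 592 CPM in MCC CD69-hi and 623, 608 and 629.9 CPM in MCC+GP CD69-hi. In CD69-lo it stood at 6.33 and 31.8 CPM in MCC CD69-lo and 11.9, 74.2 and 35.4 CPM in MCC+GP CD69-lo, without overlap (4.47 ± 0.56). The nuclear phosphatase gene Dusp4, with 166 ± 13.5 CPM against 15.4 ± 4.14 (3.52 ± 0.12), and Dusp6, which encodes the ERK phosphatase of the cytosol (1.52 ± 0.16), were higher. Dusp10, whose product acts on p38 and JNK, was lower at 9.50 ± 2.11 against 121 ± 24.9 CPM (-3.70 ± 0.13), as was Dusp1, an immediate-early gene itself (-1.44 ± 0.20), and Spred3 (-1.35 ± 0.32).

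NFAT and calcium targets had 12 of 21 tested members higher and 6 lower (median 0.85). The costimulatory receptor gene Tnfrsf9 measured 425, 593 and 547 CPM in MCC CD69-hi and 483, 625 and 587 CPM in MCC+GP CD69-hi. The CD69-lo libraries held 4.71 and 16.1 CPM in MCC CD69-lo and 2.32, 45.4 and 31.3 CPM in MCC+GP CD69-lo (5.05 ± 0.67), without overlap. Its fellow members Tnfsf14 (4.61 ± 0.37), the CD40 ligand gene Cd40lg (1.36 ± 0.27) and Fasl (1.33 ± 0.16) were higher. Nfatc2, the NFAT gene of resting T cells, was lower (-1.31 ± 0.16), as was the calcineurin gene Ppp3ca (-0.89 ± 0.15). NF-kB targets had 11 of 28 higher and 10 lower, near the shares of all tested genes (33.2% and 37.4%), with a median of 0.05. The survival gene Bcl2l1 (2.07 ± 0.15) was on the higher side. Ikbke, a kinase of the interferon and NF-kB pathways, at 46.9 ± 5.81 against 419.8 ± 58.4 CPM (-3.19 ± 0.10), Bcl3 (-2.38 ± 0.19) and the deubiquitinase gene Cyld (-1.48 ± 0.10) were lower.

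Of 25 tested costimulatory and activation receptors, 17 were higher and 5 lower (median 1.07). Beyond Tnfrsf9, the transferrin receptor gene Tfrc, which takes up iron for growth, was at 726 ± 66.1 CPM against 87.7 ± 39.2 (3.14 ± 0.26). Slamf1 (2.3 ± 0.24), the ligand genes Tnfsf8 (2.57 ± 0.20) and Tnfsf11 (2.47 ± 0.39) and the adhesion receptor gene Cd44 (1.60 ± 0.35) were higher. Cd28, the main costimulatory receptor, did not pass, at 206 ± 53.9 and 196 ± 23.2 CPM (0.06 ± 0.17, adjusted p = 0.749). Slamf6 (-1.30 ± 0.11) and Cd2 (-0.95 ± 0.11) were lower.

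Several receptors that dampen the TCR were higher in CD69-hi. Pdcd1, which encodes the checkpoint receptor PD-1, reached 262, 307 and 283 CPM in MCC CD69-hi and 277, 297 and 285 CPM in MCC+GP CD69-hi. CD69-lo levels were 6.70 and 24.3 CPM in MCC CD69-lo and 12.8, 51.6 and 28.4 CPM in MCC+GP CD69-lo (3.72 ± 0.41), without overlap. Cd5, whose level reports the strength of earlier TCR signals, was at 423 ± 54.8 CPM against 72.7 ± 37.5 (2.65 ± 0.32), and its relative Cd6 at 433 ± 52.8 against 83.3 ± 43.2 (2.47 ± 0.33). Btla (1.47 ± 0.09) and Cd160 (2.26 ± 0.25) were higher. In all, 12 of 25 tested inhibitory and anergy genes were higher and 8 lower. Dgka, a kinase that consumes the TCR messenger diacylglycerol, gave the largest difference of that list, at 51.4, 79.7 and 80.8 CPM in MCC CD69-hi and 58.3, 63.2 and 57.9 CPM in MCC+GP CD69-hi. The levels in CD69-lo were 1556 and 1712 CPM in MCC CD69-lo and 1462, 1091 and 1144 CPM in MCC+GP CD69-lo (-4.45 ± 0.13). Ctla4 was low in both fractions, at 2.45 ± 1.25 and 10.8 ± 3.56 CPM (-2.22 ± 0.28).

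The TCR machinery itself was divided, with 13 of 40 tested genes higher, 19 lower and a median of -0.21. The share of higher genes was near that of all tested genes (33.2%). Zap70, the kinase that docks on the triggered receptor, was higher (1.67 ± 0.13), as were Fyn (1.53 ± 0.10), the calcium channel gene Orai1 (1.46 ± 0.15), Malt1 (1.47 ± 0.17) and the phosphatase genes Ptpn22 (1.59 ± 0.13) and Ubash3b (3.96 ± 0.27, 457 ± 48.6 against 31.6 ± 14.9 CPM). Lower were Cd4, the coreceptor gene (83.3 ± 6.40 against 338 ± 70.1 CPM, -2.05 ± 0.10), Cd247, which encodes the zeta chain (-2.35 ± 0.09), Cd3d (-1.24 ± 0.14), Cd3g (-1.19 ± 0.10), the kinase gene Txk (-4.03 ± 0.14) and the calcium sensor gene Stim1 (-2.62 ± 0.14). Lck did not pass (-0.15 ± 0.10, adjusted p = 0.207). The receptor chain genes Trac (1.28 ± 0.14) and Trbc1 (0.62 ± 0.13) were higher while Cd3d and Cd3g were lower.

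Genes of resting and recirculating T cells were lower in CD69-hi. Of 37 tested genes of quiescence and lymph node traffic, 33 were lower, 2 were higher (Foxp1 and Slfn2, by 0.41 ± 0.11 and 0.31 ± 0.09), and the median was -2.56. S1pr1, which lets T cells leave the lymph node, stood at 15.5, 9.60 and 13.5 CPM in MCC CD69-hi and 10.3, 6.81 and 7.42 CPM in MCC+GP CD69-hi. Among CD69-lo libraries it measured 625 and 648 CPM in MCC CD69-lo and 616, 428 and 419.5 CPM in MCC+GP CD69-lo, and NP held 931 and 867 CPM. CD69-lo was thus nearer to NP than to CD69-hi (-5.77 ± 0.16, adjusted p = 4.34e-13). The gene is on chromosome 3 at 115710433 to 115715055 (GRCm38.p6).

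Klf2, the transcription factor that keeps S1pr1 switched on, was at 22.9, 18.8 and 28.2 CPM in MCC CD69-hi and 21.2, 16.7 and 23.1 CPM in MCC+GP CD69-hi. The other fraction held 712 and 639 CPM in MCC CD69-lo and 608, 413 and 407 CPM in MCC+GP CD69-lo, without overlap (-4.70 ± 0.15). Il7r, the receptor for the survival cytokine of resting T cells, was at 8.70 ± 3.03 CPM against 255 ± 54.9 (-4.92 ± 0.18). The factor gene Tcf7 (-3.62 ± 0.12), the PI3K inhibitor gene Pik3ip1 (-5.18 ± 0.20), the glucose uptake inhibitor gene Txnip (-3.77 ± 0.24), S1pr4 (-4.43 ± 0.16) and the integrin gene Itga6 (-4.05 ± 0.16) were lower. Ccr7, which guides T cells and mature dendritic cells alike, differed less (-1.05 ± 0.09), and Foxo1, the factor upstream of Klf2, did not pass (-0.04 ± 0.10, adjusted p = 0.704).

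Ribosome biogenesis gave the highest median of the 37 lists. All 53 tested ribosome biogenesis genes were higher in CD69-hi, with a median of 2.57, and all 53 were also called without the 2 CD69-lo libraries nearest to CD69-hi (median 2.78). The median member stood at 36.1 CPM in NP, 51.9 in CD69-lo and 277 in CD69-hi. Ncl, which encodes the nucleolar protein nucleolin, measured 4905, 4272 and 4469.6 CPM in MCC CD69-hi and 5145, 4722 and 4837 CPM in MCC+GP CD69-hi. In CD69-lo it stood at 671 and 830.0 CPM in MCC CD69-lo and 675, 1081 and 778 CPM in MCC+GP CD69-lo, without overlap (2.57 ± 0.14). Polr1b, a subunit of the polymerase that transcribes ribosomal RNA, was at 425 ± 29.4 CPM against 47.1 ± 17.9 (3.25 ± 0.20), the processing factor gene Rrp12 at 352 ± 12.4 against 40.9 ± 23.5 (3.25 ± 0.30), and the modifying enzyme gene Dkc1 at 394 ± 12.5 against 51.8 ± 12 (3.0 ± 0.10). The smallest difference of the list was that of Rrp1 (1.29 ± 0.09).

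The protein synthesis genes that work beside ribosomes behaved alike. Of 20 tested aminoacyl-tRNA synthetases, which charge tRNA with amino acids, 19 were higher (median 2.09), led by Yars (2.61 ± 0.13) and Iars (2.58 ± 0.12). Wars, which interferon also induces, was the one not called (0.25 ± 0.11, adjusted p = 0.0615). All 28 translation factors were higher (median 1.57), from Eef2 (0.26 ± 0.09, at 4161 ± 218 and 3441 ± 223 CPM) to Eif4ebp1 (3.03 ± 0.15), the mTOR-regulated inhibitor of cap binding. Eif5a, which needs the polyamine spermidine for its modification, was at 2003 ± 124 against 333 ± 89.0 CPM (2.63 ± 0.14).

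Amino acid supply was higher in CD69-hi in 10 of 14 tested transporter genes, with 2 lower and a median of 1.73. Slc7a5, the leucine transporter on which mTOR activation depends, reached 933, 878 and 1087 CPM in MCC CD69-hi and 1018, 873 and 1137 CPM in MCC+GP CD69-hi. The CD69-lo libraries held 49.2 and 97.3 CPM in MCC CD69-lo and 60.2, 137 and 131 CPM in MCC+GP CD69-lo, without overlap (3.46 ± 0.26). Its partner chain gene Slc3a2 (2.15 ± 0.13), the glutamine transporter gene Slc1a5 (2.81 ± 0.19) and the arginine transporter gene Slc7a1 (2.58 ± 0.18) were higher. Slc7a11, which imports cystine, was lower at 18.5 ± 7.56 against 54.4 ± 26.3 CPM (-1.46 ± 0.35).

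Serine, one-carbon and nucleotide synthesis had 31 of 35 tested genes higher, 1 lower and a median of 1.94. Psat1 of serine synthesis was at 482 ± 36.1 CPM against 34.5 ± 21.6 (4.0 ± 0.35), the mitochondrial enzyme gene Shmt2 at 815 ± 32.1 against 75.8 ± 36.2 (3.54 ± 0.22), and Cad, which starts pyrimidine synthesis, at 653 ± 43.8 against 58.3 ± 16 (3.55 ± 0.14). Srm, which makes spermidine, was higher (3.84 ± 0.24), and Odc1, at the head of the same pathway, by 1.78 ± 0.11. ATF4 response genes, which answer to amino acid shortage and other stress, were higher in 13 of 14 cases (median 1.55), among them Asns (2.93 ± 0.25), Chac1 (3.12 ± 0.36) and Atf4 itself (1.38 ± 0.10).

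Chaperones had 24 of 27 tested genes higher and 1 lower, Dnajb1 (-0.34 ± 0.13), with a median of 1.95. The abundant cytosolic chaperone gene Hsp90ab1 was at 5716 ± 272 CPM against 1484 ± 344 (2.0 ± 0.13), Hspa5 of the endoplasmic reticulum at 3095 ± 227 against 661 ± 209 (2.31 ± 0.14), and the mitochondrial chaperonin gene Hspd1 at 1167 ± 74.0 against 146 ± 63.3 (3.13 ± 0.19). The stress-inducible genes Hspa1a and Hspa1b did not pass: Hspa1b had 1.65 to 12.2 CPM in CD69-hi and 5.79 to 462 in CD69-lo (adjusted p = 0.162). All 32 tested proteasome genes were higher (median 1.29), led by the activator subunit gene Psme3 (2.37 ± 0.13). The inducible subunits Psmb8, Psmb9 and Psmb10, which interferon gamma exchanges into the proteasome, were lower (-1.97 ± 0.15, -2.61 ± 0.30 and -2.42 ± 0.14).

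Mitochondrial protein import and ribosome genes were higher in 35 of 36 tested cases (median 1.71), with the translocase gene Tomm40 at 246 ± 16.8 against 41.9 ± 9.15 CPM (2.58 ± 0.12). Respiratory chain genes followed by smaller steps, 35 of 39 higher and 2 lower, with a median of 0.79. Cycs, which encodes cytochrome c (1.79 ± 0.18), and Atp5g1 (2.54 ± 0.15) were at the upper end. Sdha (-0.33 ± 0.09) and Ndufb10 (-0.47 ± 0.13) were lower.

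Glycolysis genes were higher in 17 of 23 tested cases and lower in 3 (median 1.00). Hk2, the hexokinase that proliferating cells add, stood at 154, 114 and 111 CPM in MCC CD69-hi and 179, 134 and 141 CPM in MCC+GP CD69-hi. CD69-lo levels were 9.05 and 7.12 CPM in MCC CD69-lo and 7.48, 9.79 and 13.6 CPM in MCC+GP CD69-lo, without overlap (3.91 ± 0.17). Hk1, the hexokinase of resting cells, was lower at 59.9 ± 4.98 against 117 ± 5.33 CPM (-0.97 ± 0.09), as were Pfkm (-1.81 ± 0.33) and Pdk1, which encodes a kinase of pyruvate dehydrogenase (-2.73 ± 0.13). The lactate exporter gene Slc16a1 (2.94 ± 0.15), Ldha (1.69 ± 0.10) and Pkm (1.79 ± 0.10) were higher. Among 33 tested cholesterol and fatty acid genes, 17 were higher and 5 lower (median 0.41). Fasn, the fatty acid synthase, was at 1597 ± 64.2 CPM against 308 ± 86.2 (2.44 ± 0.14), and Acaca, which supplies its substrate, differed by 2.48 ± 0.11. Elovl6, an elongase, was lower at 5.05 ± 1.78 against 55.2 ± 17.4 CPM (-3.48 ± 0.30).

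Genes of cell cycle entry were called at shares near those of all tested genes (33.2% higher and 37.4% lower), and few genes of division differed. Of 34 tested entry genes, 12 were higher and 14 lower, with a median of -0.04. Ccnd2, the D-type cyclin of activated lymphocytes, was at 1618 ± 189 CPM against 346 ± 77.0 (2.27 ± 0.14), and its kinases Cdk4 (2.32 ± 0.12) and Cdk6 (1.92 ± 0.17) were higher. Ccnd3, the cyclin of resting T cells, was lower (-1.88 ± 0.13). Cdkn1b, an inhibitor of cyclin-dependent kinases that holds T cells in quiescence, was at 23.2, 16.6 and 29.2 CPM in MCC CD69-hi and 25.2, 16.7 and 27.7 CPM in MCC+GP CD69-hi. The levels in CD69-lo were 313 and 306 CPM in MCC CD69-lo and 280.0, 179 and 197 CPM in MCC+GP CD69-lo, without overlap (-3.49 ± 0.18). The kinase inhibitor gene Cdkn2d (-4.46 ± 0.23) and the pocket protein gene Rbl2 (-3.70 ± 0.18) were lower too. Of 23 tested mitosis genes, none was higher and 5 were lower (median -0.51). Mki67, which marks dividing cells, had 5.76 to 21.8 CPM in CD69-hi and 20.6 to 49.8 in CD69-lo (-1.02 ± 0.32, adjusted p = 0.0147), a call lost without MCC CD69-lo replicate 2 (0.0569) and without both CD69-lo libraries nearest to CD69-hi (0.134).

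Apoptosis genes were divided, with 8 of 23 tested higher and 13 lower (median -0.55). The share of higher ones was near that of all tested genes (33.2%). Bcl2l1, which protects activated T cells, was at 271 ± 40.7 CPM against 66.6 ± 16.4, and its antagonist Bid was higher as well (1.95 ± 0.13). Mcl1, the survival gene of resting T cells, was lower (-0.82 ± 0.09), as were the caspase genes Casp8 (-1.88 ± 0.12) and Casp9 (-2.13 ± 0.21) and Apaf1, which activates the latter (-1.53 ± 0.14).

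The type I interferon response gave the lowest median of the 37 lists. All 42 tested genes of the type I response were lower in CD69-hi, with a median of -2.96. Ifit3, a translation regulator induced by interferon, measured 8.19, 3.56 and 8.41 CPM in MCC CD69-hi and 5.85, 2.55 and 4.90 CPM in MCC+GP CD69-hi. Among CD69-lo libraries it measured 176 and 139 CPM in MCC CD69-lo and 171, 125 and 116 CPM in MCC+GP CD69-lo, and NP held 238 and 117 CPM. CD69-lo libraries were thus at the level of NP and the CD69-hi libraries far below it (-4.76 ± 0.22, adjusted p = 8.83e-10). Over the list, the median member stood at 148 CPM in NP, 147 in CD69-lo and 21.1 in CD69-hi. Irf7, which amplifies the response, was at 24.2 ± 5.66 CPM against 290.4 ± 50.6 (-3.61 ± 0.16), the nucleic acid sensor gene Zbp1 at 30.9 ± 9.11 against 523 ± 109 (-4.10 ± 0.23), and the transcription factor gene Stat2 was lower (-2.95 ± 0.16).

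Of 33 tested interferon gamma response genes 29 were lower and 1 higher (median -2.93). The guanylate-binding gene Gbp4 reached 79.4, 53.1 and 92.9 CPM in MCC CD69-hi and 83.1, 32.4 and 55.6 CPM in MCC+GP CD69-hi. The other fraction held 1725 and 1460.1 CPM in MCC CD69-lo and 1834, 1288 and 1408 CPM in MCC+GP CD69-lo, without overlap (-4.57 ± 0.25). The related GTPase genes Igtp (-4.6 ± 0.22) and Iigp1 (-5.04 ± 0.23) gave differences of like size. Irf1 (-3.07 ± 0.24) and Nlrc5, which drives MHC class I genes (-2.52 ± 0.15), were lower with their targets Tap1 (-2.39 ± 0.18) and B2m (-0.99 ± 0.12). Irf8, which dendritic and B cells also express, was the member that was higher, at 396 ± 109 against 242 ± 69.7 CPM (0.81 ± 0.21). The interferon lists share 1 gene.

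Genes of helper lineages gave no common direction, and the T helper 2 shares were near those of all tested genes (33.2% and 37.4%). Cxcr3, a homing receptor of T helper 1 cells, was at 29.5, 42.2 and 36.9 CPM in MCC CD69-hi and 30.2, 35.4 and 31.5 CPM in MCC+GP CD69-hi. In CD69-lo it stood at 0.724 and 0.828 CPM in MCC CD69-lo and 0, 2.08 and 1.44 CPM in MCC+GP CD69-lo, without overlap (5.20 ± 0.33, and 8.07 without the 2 CD69-lo libraries nearest to CD69-hi). The interleukin-12 receptor genes parted: Il12rb1 was higher (2.40 ± 0.29) and Il12rb2 lower (-2.35 ± 0.22). Il18r1 was lower (-4.80 ± 0.16), and Tbx21, the master regulator of that lineage, did not pass, at 15.1 ± 6.06 and 18.7 ± 9.86 CPM (adjusted p = 0.925). In all, 2 of 12 T helper 1 genes were higher and 8 lower, 3 of 10 T helper 2 genes were higher and 4 lower, 6 of 13 follicular helper genes were higher and 4 lower, and 5 of 12 regulatory T genes were higher and 4 lower. Ccr8, a chemokine receptor of T helper 2 and regulatory T cells, was at 50.7 ± 12 against 2.19 ± 2.02 CPM (4.82 ± 0.44), while Gata3 was low in both (16 ± 2.14 and 22.0 ± 4.80 CPM, -0.50 ± 0.16), a call lost without MCC CD69-lo replicate 1 (adjusted p = 0.0633). Foxp3 stood at 4.20 ± 1.58 and 2.96 ± 1.67 CPM and did not pass (adjusted p = 0.329).

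Genes of other cell types were lower in CD69-hi or did not pass, with few exceptions. Of 28 tested myeloid and dendritic genes 17 were lower and none higher (median -1.21), against 9 lower and 1 higher without the 2 CD69-lo libraries nearest to CD69-hi. Fscn1 and Tyrobp lost their calls there (adjusted p = 0.0633 and 0.0636). Of 14 MHC class II presentation genes 7 were lower (4 without MCC CD69-lo replicate 1), among them Ctss, a protease of antigen processing (-1.66 ± 0.19). The class II genes H2-Aa and H2-Ab1 did not pass, at 81.2 ± 36.6 against 143 ± 41.0 and 98.9 ± 49.4 against 158 ± 36.6 CPM. These counts are from the model without a replicate block. With a block by well order, more members of the MHC class II and myeloid lists were lower, as given below. Of 22 B-cell genes 6 were lower and 1 higher. Cd79a (-1.11 ± 0.27) and Ighm (-0.80 ± 0.21) were lower. Fcer2a, the low-affinity IgE receptor of B cells, was the exception, at 225, 100.2 and 266 CPM in MCC CD69-hi and 305, 125 and 246 CPM in MCC+GP CD69-hi. The CD69-lo libraries held 40.9 and 31.6 CPM in MCC CD69-lo and 65.4, 54.3 and 51.6 CPM in MCC+GP CD69-lo, without overlap (2.21 ± 0.33). Of 10 NK and CD8 T cell genes 6 were lower and 1 higher, Nkg7, a granule gene that activated T cells also use, at 1.60 ± 0.905 CPM against 0.127 ± 0.127 (4.58 ± 0.92). Of 7 erythroid and stromal genes 2 were lower, Kdr (-1.83 ± 0.56) and Pecam1 (-4.15 ± 0.17), the latter a gene which resting T cells also express and which stood at 419 CPM in NP.

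The genes with the largest differences were picked by a rule: adjusted p at most 0.05, a mean of at least 10 CPM in one fraction and no overlap between libraries. Of the 12 higher ones, 11 are given here: Bdh2, Akr1c18, Il2, Gm2762, Car12, Rgs16, Bcat1, Npas4, Ncs1, Cxcr3 and Tnfrsf9, with log2 fold changes from 5.05 ± 0.67 to 7.0 ± 0.47. Rgs16, which ends signalling from chemokine receptors, stood at 231, 280.1 and 326 CPM in MCC CD69-hi and 274, 349 and 332 CPM in MCC+GP CD69-hi. CD69-lo levels were 0.905 and 6.29 CPM in MCC CD69-lo and 0.712, 27.0 and 7.34 CPM in MCC+GP CD69-lo (5.59 ± 0.69). Bcat1, the cytosolic enzyme of leucine breakdown, was at 276 ± 23.9 CPM against 6.85 ± 4.30 (5.51 ± 0.30). Car12, a membrane carbonic anhydrase, was at 76.8 ± 13.4 against 1.95 ± 1.67, and Npas4, a calcium-dependent factor best known from neurons, at 92.1 ± 10.1 against 3.21 ± 4.27.

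The 12 lower ones were Fam101b, Gm43127, BC043934, Ncmap, Cyp2s1, Kbtbd11, Mturn, Mgst2, S1pr1, Gbp11, 5830468F06Rik and Cyp2d22, from -5.72 ± 0.49 to -7.17 ± 0.28. Fam101b, which binds the cytoskeletal protein filamin, was at 3.58, 1.37 and 4.85 CPM in MCC CD69-hi and 3.02, 2.21 and 0.890 CPM in MCC+GP CD69-hi. The levels in CD69-lo were 431 and 479 CPM in MCC CD69-lo and 388, 226 and 267 CPM in MCC+GP CD69-lo, against 718 and 707 CPM in NP. Kbtbd11 was at 9.44 ± 2.86 CPM against 586 ± 131 (-6.00 ± 0.18, chromosome 8 at 15011025 to 15033333 in GRCm38.p6). The transcript 5830468F06Rik, at 15010731 to 15021597 on the same chromosome, overlaps it, so the 2 calls may share reads. All 12 were present in NP, from 16.3 CPM for Gm43127 to 819 for Kbtbd11.

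Each peptide mix was also tested by itself. With MCC, 3829 genes (28.0%) were higher and 3973 (29.1%) lower in CD69-hi, from 3 against 2 libraries. With MCC+GP, 3974 (29.1%) were higher and 4314 (31.6%) lower, from 3 against 3. These contrasts share no library. Of the MCC calls 88.6% were also called with MCC+GP, and 83.4% the other way round. Of 6911 genes called in both, 6909 differed in the same direction.

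**Figure D4:**
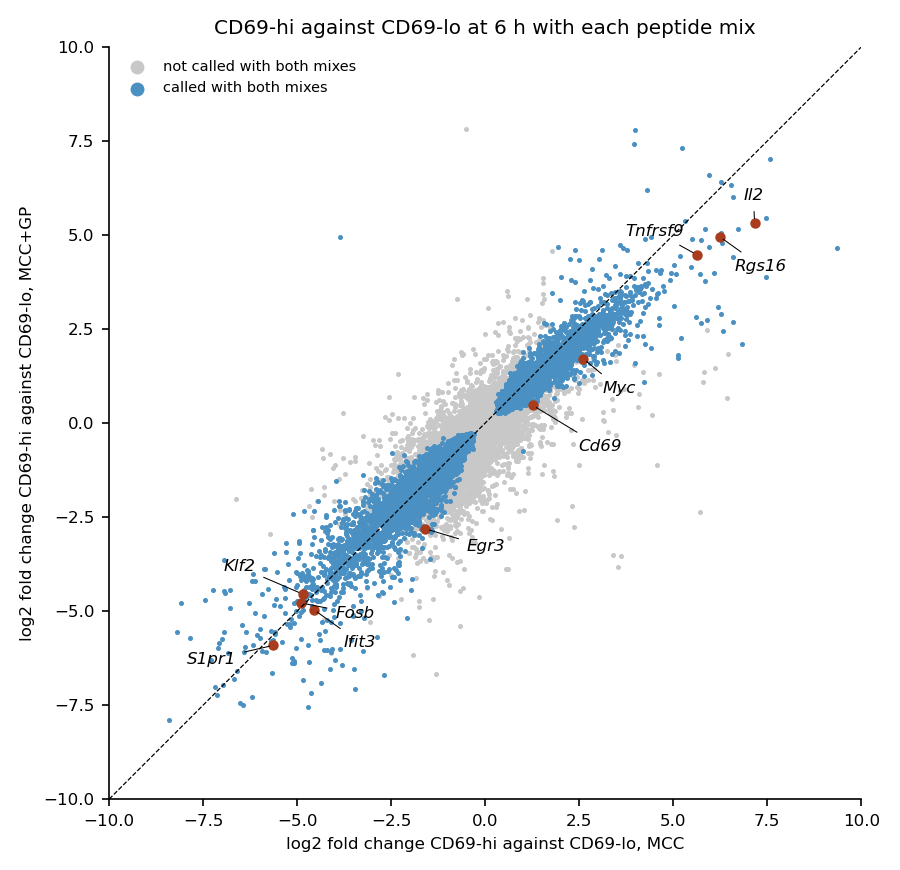
Log2 fold change of CD69-hi over CD69-lo at 6 h for 13653 genes, with MCC on the horizontal and MCC+GP on the vertical axis. Blue dots are genes called with both mixes, the dashed line marks equal values, and 10 genes are labelled. Il2, Tnfrsf9, Rgs16, Myc, Cd69 and Egr3 lie below the dashed line, where values with MCC+GP are lower.

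Whether GP changed the difference between the gates was tested as an interaction, and no gene passed (0 of 13653, 0%; edgeR quasi-likelihood test). At an unadjusted p under 0.05 there were 571 genes (4.18%), and the smallest adjusted p was 0.719. The differences of 8 panel genes of activation were each nearer to 0 with MCC+GP, without passing the test. That order turned for Il2ra and Cd5 without the 2 CD69-lo libraries nearest to CD69-hi (interactions of 0.31 and 0.37). These 8 were grouped by their direction, and Egr1, Egr3, S1pr1 and Mki67 of the same panel were further from 0 with MCC+GP, likewise without passing. In the alternatives the interaction of Egr1 ranged from -0.82 to -0.42. Over all tested genes the median interaction was -0.01. Il2 differed by 7.16 ± 0.74 with MCC and 5.33 ± 0.52 with MCC+GP (interaction -1.84 ± 1.09). Its MCC CD69-lo arm was near 0, and without replicate 2 of that arm, which leaves a library with no Il2 count, the MCC value became 12.7 and the interaction -7.34, values set by the prior count of the fit. Without replicate 1 the interaction was -0.91, and without the 2 CD69-lo libraries nearest to CD69-hi it was -0.17. Il2ra gave 3.85 ± 0.56 and 2.89 ± 0.45, Myc 2.61 ± 0.23 and 1.71 ± 0.19, Irf4 2.65 ± 0.18 and 2.03 ± 0.15, Cd69 1.27 ± 0.22 and 0.47 ± 0.19, and Nr4a1 1.22 ± 0.26 and 0.16 ± 0.23. Egr2 gave 0.85 ± 0.14 and 0.15 ± 0.12, and Cd5 2.97 ± 0.48 and 2.34 ± 0.40. Egr3 differed more with MCC+GP, with -1.59 ± 0.20 and -2.81 ± 0.19 (interaction -1.22 ± 0.28, unadjusted p = 0.000504, adjusted p = 0.962). Mean levels of Myc and Egr3 were higher in MCC+GP CD69-lo than in MCC CD69-lo libraries: Myc was at 410.1 ± 102 CPM (SD, n = 3) against 216 ± 79.5 (SD, n = 2), and Egr3 at 505 ± 47.5 against 271 ± 82.7. In CD69-hi the means were 1319 with MCC and 1340.0 with MCC+GP for Myc, and 89.8 and 71.9 for Egr3. Without a filter on low counts 17 genes passed the interaction test, Nr4a1, Egr3 and Myc among them, and 1 gene passed with DESeq2 or without MCC CD69-lo replicate 1. The MCC CD69-lo arm holds 2 libraries, so its spread is estimated with help from the other groups.

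The difference between the gates was also set against that at 1 h, where the same phenotypes had 12 libraries. Totals there ran from 852129 to 3346959 in CD69-hi and from 4404348 to 6285828 in CD69-lo. Every CD69-hi library of 1 h thus had fewer counts than every CD69-lo library. At 6 h totals were 5227459 to 8029952 in CD69-hi and 3169914 to 5890052 in CD69-lo. The part of depth in the changes with time was not tested. Of 15040 genes tested, the difference was larger or more positive at 6 h for 3660 (24.3%) and smaller or more negative for 3243 (21.6%). With RLE size factors these counts were 3038 and 3824, and with DESeq2 3185 and 4153, so which side is larger depends on the scaling. The CD69-hi libraries of 1 h held 3186 to 5963 plain CPM of B-cell genes against 1063 to 4643 in CD69-lo. Genes of antigen-presenting cells turned in direction between the times. The median difference of myeloid and dendritic genes was 1.22 at 1 h and -1.23 at 6 h. For MHC class II presentation genes it was 0.73 and -0.84. The part of these cells in the genes that changed, Egr1, Egr3 and Mki67 included, was not tested.

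**Figure D5:**
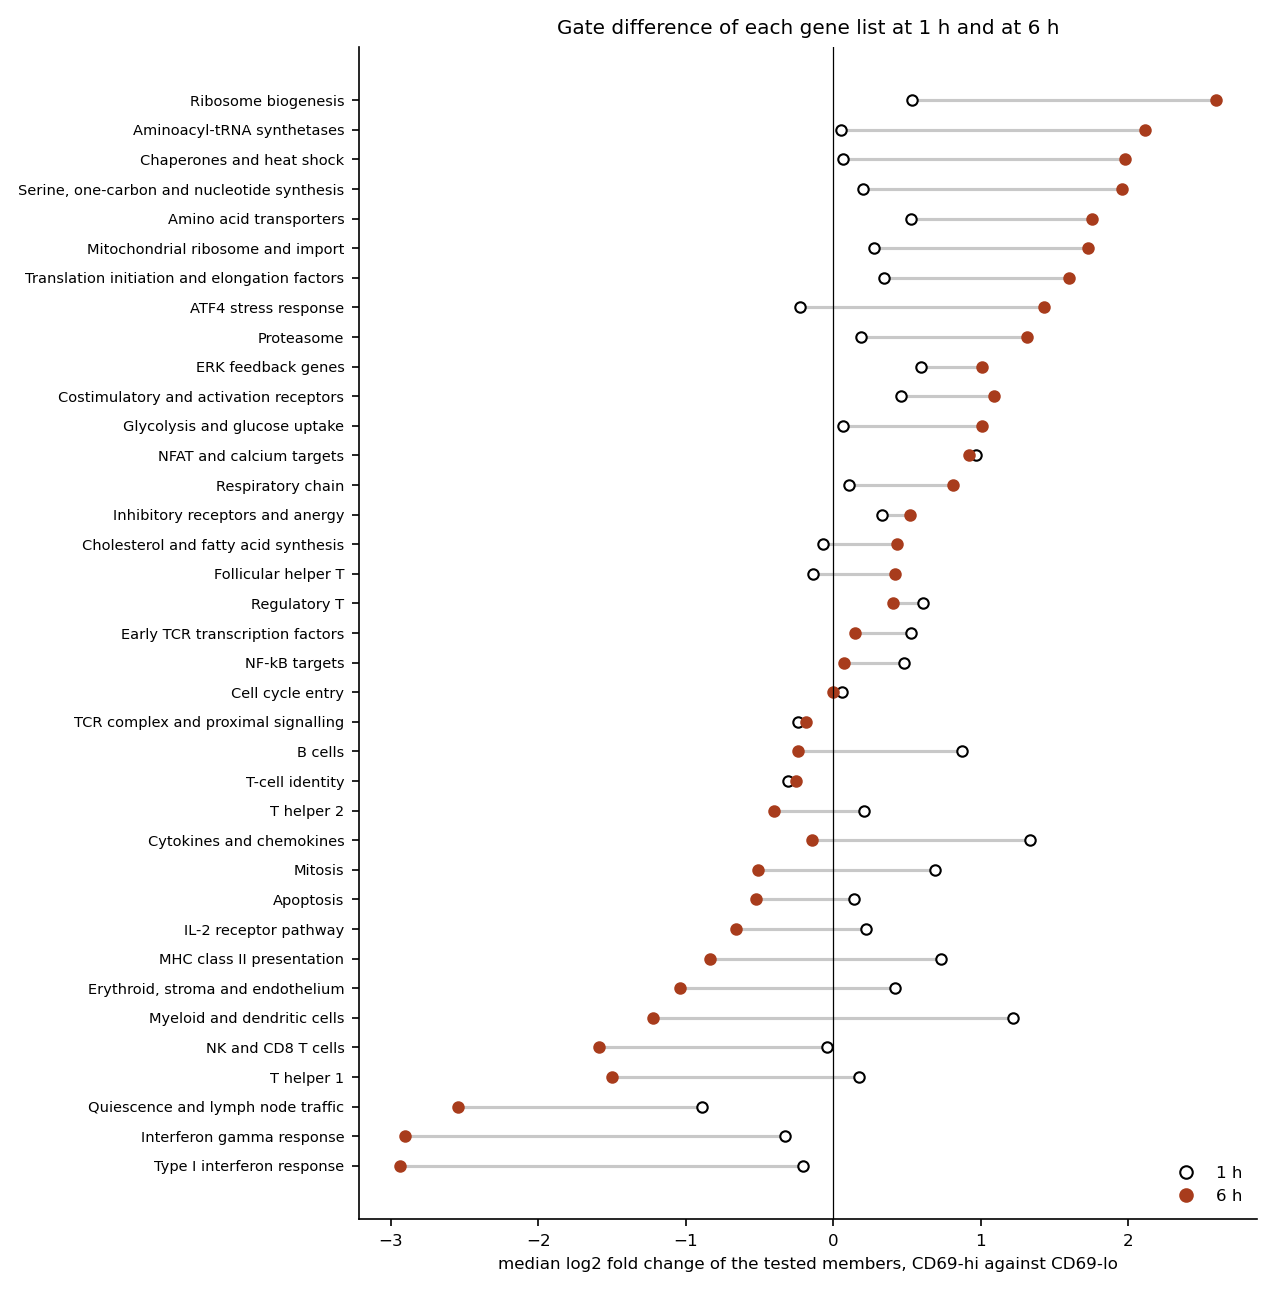
Median log2 fold change between CD69-hi and CD69-lo over the tested members of each of 37 gene lists at 1 h (open circles) and 6 h (filled circles), from a fit of 23 libraries. Ribosome biogenesis moves from 0.53 to 2.6 and the type I interferon response from -0.21 to -2.94.

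Growth genes differed less between the fractions at 1 h. The median difference of ribosome biogenesis genes was 0.53 at 1 h and 2.6 at 6 h, and 53 of 53 had a larger difference at 6 h. For aminoacyl-tRNA synthetases the medians were 0.05 and 2.11, with 20 of 20 larger, and for proteasome genes 0.18 and 1.31, with 32 of 32. Type I interferon genes went from -0.21 to -2.94, and 40 of 42 were more negative at 6 h. Quiescence genes were lower in CD69-hi already at 1 h (median -0.89) and more so at 6 h (-2.54).

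The course of single genes varied. Il2 was separated at both times, by 4.82 ± 1.03 at 1 h and 6.25 ± 0.45 at 6 h, and the change did not pass (adjusted p = 0.651). Its levels at 1 h were low, at 8.39 ± 6.20 CPM (SD, n = 3) in MCC CD69-hi and 0.335 ± 0.392 (SD, n = 3) in MCC CD69-lo. Cd69 (0.69 ± 0.20 and 0.89 ± 0.21) and Nr4a1 (0.56 ± 0.24 and 0.71 ± 0.25) did not pass either (adjusted p = 0.618 and 0.756). Cd5 went from 0.71 ± 0.25 to 2.68 ± 0.28 and Il2ra from 2.07 ± 0.25 to 3.40 ± 0.29, both past the threshold. Egr1 and Egr3 parted from these: Egr1 differed by 0.02 ± 0.21 at 1 h, where CD69-lo held 3652 CPM with MCC and CD69-hi 3878, and by -1.73 ± 0.22 at 6 h (adjusted p of the change = 0.000123). Egr3 went from 0.49 ± 0.28 to -2.18 ± 0.30 (adjusted p = 5.03e-05). Mki67 turned from 1.30 ± 0.34 to -0.99 ± 0.33. Crtam, an adhesion receptor of activated lymphocytes, gave the largest change by the rule: it was at 44.7 ± 6.13 CPM in CD69-hi and 2.40 ± 1.22 in CD69-lo at 6 h (4.28 ± 0.33). At 1 h its mean was at most 1.35 CPM in every group and no count was seen in MCC+GP CD69-hi. Myc changed from 1.55 ± 0.16 to 2.18 ± 0.18 (adjusted p = 0.0258), a call lost with RLE size factors (0.120).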

How the data were processed

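Poly(A) RNA of lymph node T cells was sequenced in 51 libraries, of which the 11 sorted ones of 6 h are compared here. The tools named in the submitters' processing notes are HTSeq 0.9.1, STAR 2.6.1c and bcl2fastq 2.20, and the genome build is mm10; no strand setting is given. The deposited counts are whole numbers of reads per gene, not normalized, for 34923 features. Per-sample totals of the sorted 6 h libraries limit precision for genes at a few CPM, and counting error is not the only error, and no molecular identifiers are named in the labels.

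Genes with too few counts were removed with filterByExpr, which left 13653 at 6 h. Library sizes were scaled by TMM. edgeR 4.0.16 (R 4.3.3) fitted 1 coefficient per group with robust quasi-likelihood dispersion, and the CD69-hi minus CD69-lo contrast was averaged over both peptide mixes. The interaction with the mix and, in 23 libraries and 15040 genes, with time used the same test. The adjusted p (Benjamini-Hochberg over all tested genes) had a threshold of 0.05, and the SE was derived from the F statistic. CPM were computed from the counts with TMM. Sums of markers are plain CPM.

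Genes are named by a rule: a fixed panel of 14, up to 12 higher and 12 lower genes with the largest called change, at least 10 CPM in the higher fraction and no overlap between libraries (6 and 6 in the other contrasts), and up to 5 leading members of each of 37 lists. Some genes that the rule names are not reported here. The members and lists were chosen with earlier results of these data known. Gene positions come from the RefSeq table of GRCm38.p6. The procedure was tested on simulated data in which few genes changed, equally up and down. Most genes were called in the real data, so that test does not vouch for scaling or error control here. Alternatives were RLE size factors, no filter, DESeq2 1.42.0, all 51 libraries, a replicate block, an additive model, a 1.5-fold threshold and leaving out each library.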

Additional observations from a re-analysis of the deposited data

Results flagged for a closer look

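The difference between CD69-hi and CD69-lo changed between 1 h and 6 h for 21 of the reported genes named by the rule (edgeR quasi-likelihood test of the interaction, 3 libraries per group at 1 h and 2 or 3 at 6 h). Each value is the log2 difference at 6 h minus that at 1 h.

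In the fixed panel the change was 1.97 for Cd5, 1.32 for Il2ra, 0.89 for Irf4 and 0.64 for Myc, and it was negative for Egr1 (-1.75), Egr3 (-2.67), Klf2 (-2.79), S1pr1 (-3.29) and Mki67 (-2.29). Myc lost its call without MCC CD69-lo replicate 1 of 6 h (adjusted p = 0.106) and Egr1 in the fit of all 51 libraries (0.0627).

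The largest positive changes were those of Crtam (7.49), Gm20743 (6.73), Syde2 (5.72), Car12 (5.55), Fads6 (4.37) and Adamts6 (4.17). Adamts6, a secreted metalloproteinase, was at a mean of 219 CPM in CD69-hi and 18.9 in CD69-lo at 6 h, and its difference was -0.51 at 1 h. Crtam and Gm20743 had no count in MCC+GP CD69-hi at 1 h, so their values depend on the prior count of the fit. Totals of that group ran only from 930161 to 1105292.

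The largest negative changes were those of Gm22567 (-7.05), Ighv1-4 (-6.6), Gm43127 (-6.55), Gm10800 (-5.73), Ighv8-12 (-5.55) and Gm45055 (-5.49). Ighv1-4 and Ighv8-12, immunoglobulin heavy chain segments of B cells, were at 22.7 and 24.5 CPM in MCC CD69-hi at 1 h and under 1 CPM in both fractions at 6 h. B-cell genes summed to 3186 to 5963 plain CPM in CD69-hi and 1063 to 4643 in CD69-lo at 1 h, and their part in these values was not tested. Calls of Gm22567 (adjusted p = 1) and Ighv1-4 (0.0665) were lost without MCC CD69-lo replicate 1 of 6 h, that of Ighv1-4 also without MCC+GP CD69-lo replicate 3 (0.212), and that of Ighv8-12 without MCC+GP CD69-lo replicate 1 (0.0659) or MCC CD69-lo replicate 2 (0.0640).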

How the results depend on the processing

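The total counts of called genes moved by less than 1.5 times, other than for the interaction with the peptide mix. The stratified comparison gave 9642 called genes, 9682 with RLE size factors, 10354 without a filter, 9810 with DESeq2, 9690 with all 51 libraries, 9658 with the additive model, 6434 against a 1.5-fold threshold (2874 higher, against 4537) and 8891 to 9722 when 1 library was left out. Without the 2 MCC+GP CD69-lo libraries nearest to CD69-hi, an alternative chosen after seeing the data, it gave 9542. Leaving out 1 library gave 6268 to 8046 with MCC, 7357 to 8354 with MCC+GP and 6134 to 7018 for the change with time. The interaction with the peptide mix gave 0 genes, against 17 without a filter, 1 with DESeq2 and 0 to 1 when 1 library was left out, where the 1 came without MCC CD69-lo replicate 1. The cause was not tested.

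With the replicate block the stratified comparison gave 9889 called genes, the interaction 0 and the change with time 7220. Replicate numbers followed the order of wells, which no label ties to an animal. Same-numbered libraries correlated in their deviations by 0.224 and 0.236 with MCC and by 0.151, 0.0878 and 0.181 with MCC+GP, so the numbers were not taken as pairs, although in each of these 5 pairs the CD69-hi library correlated best with the CD69-lo library of its own number, a hint from the data. The block raised the lower members of the myeloid list from 17 to 25 and of the MHC class II list from 7 to 13.

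The median change with time moved from -0.05 with TMM to -0.22 with RLE size factors, and changes in that contrast are relative to it. No called difference of a named gene changed sign in these alternatives. Some that were not called did: Nr4a1 with MCC+GP ranged from -0.0022 to 0.54 and with time from -0.03 to 0.43, and Hbb-bs from -1.72 to 0.98. In the interaction with the mix, Klf2 ranged from -0.04 to 0.53, Cd5 from -1.31 to 0.37 and Il2ra from -1.51 to 0.31. Cd69 lost its call with MCC+GP when all 51 libraries were fitted (adjusted p = 0.348) and without single libraries (0.0594 to 0.164). Depth limits genes of a few CPM, such as Il4 and Foxp3. With 2 MCC CD69-lo libraries, leaving out 1 leaves that arm with a single library, which is then assumed to vary like the other groups.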

Other observations

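A set of genes was highest in the CD69-lo fraction, above both CD69-hi and the ungated libraries of 6 h. This set was chosen after the values were seen and carries no test. In 260 of 13653 tested genes (1.9%) every CD69-lo library lay above every other library of 6 h, and in 181 (1.33%) every CD69-lo library lay below. Of the 260, 170 reached 10 CPM in CD69-lo, and 91 of these were at least 2-fold above both other means. The leading ones were Fosb (27.7-fold above the next highest mean), Fos (9.91-fold) and Egr3 (5.09-fold). Dendritic cell genes stood among them too: Flt3 was at a mean of 30.5 CPM in CD69-lo, 8.85 in CD69-hi and 1.88 in NP, and Apol7c at 436, 118 and 2.11 CPM. Cd1d1, which presents lipids, was at 96.2, 28.1 and 27.1 CPM. Whether T cells or other cells of the gate carried these RNAs was not tested.

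The order of the groups differed between gene groups. In 50 of 53 ribosome biogenesis genes CD69-lo lay between the ungated libraries (NP and GP) and CD69-hi, with median levels of 35.7, 51.9 and 277 CPM. In all 14 tested MHC class II presentation genes CD69-lo lay above both, with medians of 8.07 CPM in NP and GP, 82.9 in CD69-lo and 39.1 in CD69-hi. Over all 13653 tested genes CD69-lo lay between in 7978, above both in 3060 and below both in 2613, so lying between was the most frequent order. The medians over all tested genes were 19 CPM in NP and GP, 20 in CD69-lo and 18.1 in CD69-hi.

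Of the genes called with both peptide mixes, 2 differed in opposite directions, Tbkbp1 and 4833413E03Rik. They were named because there were only these.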
